A study of Arabidopsis thaliana with 4 samples.

Results

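The growth-regulating factors *GRF1* to *GRF9* and the co-activator gene *GIF1* of *Arabidopsis thaliana* were examined in dissected shoot tissue. The 10 genes were chosen by name, as the complete *GRF* family and the best studied of the genes for their GIF partner proteins, and each is read by 1 probe, 10 of the 25665 annotated loci on the array. The samples were 2 biological replicates of meristem-enriched tissue and 2 of young leaves, hybridised to 4 one-colour arrays. Every plant carried *clv3-9* in the Columbia background, was 9 weeks old and had grown on soil in days of 8 h light and 16 h darkness, without any treatment. *clv3-9* is a point mutation in the coding region of *CLV3* that removes its function and enlarges the vegetative meristem, so that neither tissue came from a wild-type plant. Tissues were separated by hand, and how many plants went into a sample is not given in the sources used here. In bulk tissue, fewer cells of a type and less RNA per cell cannot be told apart, which holds for every difference below.

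GRF proteins are plant transcription factors with 2 conserved domains, a WRC domain that binds DNA and a QLQ domain that binds GIF proteins. GIF1, also known as ANGUSTIFOLIA3, has no DNA-binding domain of its own and connects GRFs to SWI/SNF chromatin remodelling complexes. The pair is known for prolonging cell proliferation in young leaf primordia, and loss of *GIF1* gives narrow leaves with fewer cells. A second layer of control is the microRNA miR396, which is complementary to the transcripts of *GRF1*, *GRF2*, *GRF3*, *GRF4*, *GRF7*, *GRF8* and *GRF9* but not to those of *GRF5* and *GRF6*. In sequence trees of the family, *GRF1* groups with *GRF2*, *GRF3* with *GRF4*, *GRF5* with *GRF6* and *GRF7* with *GRF8*.

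Levels are given as normalized log2 signal, which is the log2 of the processed fluorescence of a probe after each array had been scaled to its 75th percentile. Before scaling, that percentile lay between 605.5 and 978.2 in signal, and between 60.1% and 63.3% of all probes were well above background on an array. The arrays share 1 slide and 1 scan. Signals of different probes are not comparable, so genes are set against each other only by their differences between tissues. A difference was called at an adjusted p of at most 0.05 in limma, after Benjamini-Hochberg adjustment across the 23259 loci that were tested. Under this rule 48.6% of the loci were called, 27.1% higher and 21.6% lower in the meristem. The markers of the labelled tissues were chosen with earlier results of these data known, so they are no independent check of the labels. The paper had itself used several of them on these arrays to check the dissection. All 6 meristem markers were higher in the meristem, with *STM* up by 6.73 on the log2 scale and the stem cell organiser gene *WUS* at least 32.97-fold higher, and all 4 photosynthesis genes used as leaf blade markers were lower.

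Of the 10 genes, 9 were called higher in the meristem, against 27.1% of all loci. None was called lower, against 21.6% of all loci, and *GRF4* did not pass the test. The log2 differences ran from 0.36 to 5.54 with a median of 3.53, where the median over all loci tested was 0.10. With the additional requirement of a 4-fold difference, 6 of the 10 genes were called, *GIF1*, *GRF5*, *GRF6*, *GRF7*, *GRF8* and *GRF9*, against 6.55% of all loci (6.41% were called 4-fold lower, and none of the 10 genes). Both meristem arrays were above both leaf arrays for all 10 genes, an ordering found for 43.8% of the loci tested. No probe was saturated, and 9 of the 10 were well above background on every array. The exception was *GRF6* in leaf.

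**Figure D1:**
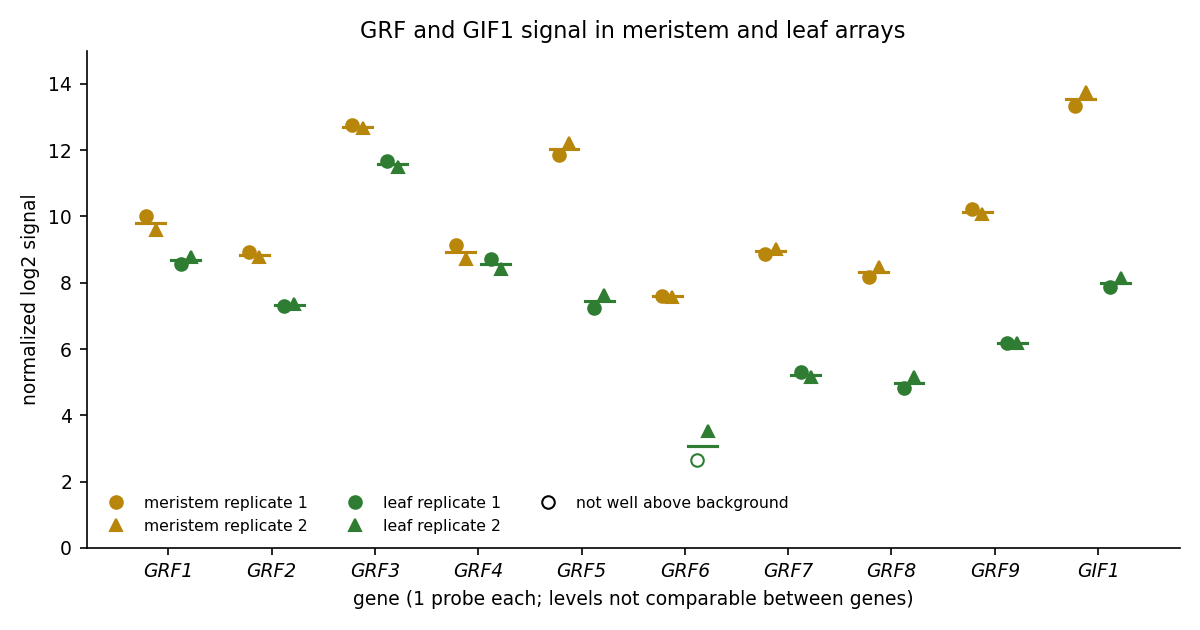
Normalized log2 signal (vertical axis) of the 10 genes (horizontal axis) on each of the 4 arrays. Points are single arrays, circles for replicate 1 and triangles for replicate 2, horizontal bars are tissue means over 2 arrays, and the open symbol is a probe not well above background. The meristem points of *GIF1*, *GRF5* and *GRF6* lie more than 4 log2 units above the leaf points, whereas those of *GRF4* nearly touch.

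*GIF1* had the largest difference of the 10. Its probe (AT5G28640, chr5:10647839-10647898 in the coordinates of the array files, whose genome build is not given in the sources used here) read 13.35 and 13.74 in the 2 meristem samples and 7.86 and 8.14 in the 2 leaf samples. On the linear scale these are signals of 10405 and 13717 in the meristem and of 232 and 283 in the leaf. The means were 13.54 ± 0.28 and 8.00 ± 0.20 (SD, n = 2 each), and the difference of 5.54 (SE 0.20, 95% interval 4.99 to 6.10, limma adjusted p = 0.000506) corresponds to 46.7-fold. Only 0.327% of the loci tested had a larger difference towards the meristem. The leaf signal was low but measurable, since both leaf arrays were well above background.

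*GRF5* and *GRF6*, whose transcripts lack the miR396 site, followed. *GRF5*, which promotes cell division in leaf primordia and is a physical partner of GIF1, read 11.84 and 12.20 in the meristem and 7.23 and 7.64 in the leaf (AT3G13960, chr3:4610014-4610073). The difference was 4.58 (SE 0.22, interval 3.99 to 5.18, limma adjusted p = 0.000661), or 24.0-fold. *GRF6* read 7.59 and 7.58 in the meristem (AT2G06200, chr2:2427171-2427230). In the leaf its probe read 2.65 on the array of replicate 1, where it was not well above background, and 3.52 on that of replicate 2, where it was. The measured difference of 4.50 (SE 0.32, interval 3.63 to 5.37, limma adjusted p = 0.00126) therefore rests on a leaf level close to the background. Before any correction the *GRF6* spot in leaf had a mean signal of 64.4 and 72.4 over local backgrounds of 54 and 48. The size of the *GRF6* difference depends on how that background is treated, and normexp, which adds an offset of 50 to every spot, gave 1.34 as planned, where the call was lost (adjusted p = 0.254). In a normexp fit without spots of stray background, added after seeing the data and described below, it was 1.78 and called. *GRF5* kept its call in both fits, with 3.89 and 4.17.

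*GRF7*, *GRF8* and *GRF9* form the next group in size, between 3.34 and 3.96. *GRF9*, which in leaves has been described as a restraint on cell proliferation, read 10.21 and 10.07 in the meristem and 6.18 and 6.18 in the leaf (AT2G45480, chr2:18754294-18754353), a difference of 3.96 (SE 0.12, interval 3.63 to 4.30, limma adjusted p = 0.000464) or 15.6-fold. Its leaf arrays were the closest pair among the 10 genes. *GRF7*, known as a repressor of drought response genes, read 8.87 and 9.02 against 5.30 and 5.15 (AT5G53660, chr5:21812794-21812853). It was 13.2-fold higher in the meristem, with a difference of 3.72 (SE 0.14, interval 3.35 to 4.09, limma adjusted p = 0.000506). For *GRF8*, its closest relative in the family, the arrays gave 8.18 and 8.48 against 4.82 and 5.15 (AT4G24150, chr4:12539098-12539157). That is a difference of 3.34 (SE 0.19, interval 2.82 to 3.87, limma adjusted p = 0.000859) and 10.2-fold. The leaf levels of these 3 genes are dim, and normexp as planned gave 2.66 for *GRF9*, 1.84 for *GRF7* and 1.54 for *GRF8* and lost all 3 calls (adjusted p = 0.0560, 0.129 and 0.159). The added fit without stray-background spots gave 3.05, 2.24 and 1.91, each called.

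*GRF1*, *GRF2*, *GRF3* and *GRF4* differed least, and none reached 4-fold. *GRF2*, which acts redundantly with *GRF1* and *GRF3* in leaf and cotyledon growth, read 8.92 and 8.78 against 7.29 and 7.36 (AT4G37740, chr4:17725641-17725700) and differed by 1.52 (SE 0.13, interval 1.18 to 1.86, limma adjusted p = 0.00174). *GRF3* read 12.76 and 12.66 against 11.68 and 11.48 (AT2G36400, chr2:15277262-15277321), a difference of 1.13 (SE 0.14, interval 0.76 to 1.5, limma adjusted p = 0.00448). *GRF1* read 10.002 and 9.59 against 8.58 and 8.77 (AT2G22840, chr2:9737828-9737887). Its difference of 1.12 was nearly that of *GRF3*, but the meristem arrays lay further apart (SE 0.19, interval 0.59 to 1.65, limma adjusted p = 0.0118). Normexp as planned gave 0.92 for *GRF1* and 0.92 for *GRF2* and lost both calls (limma adjusted p = 0.0878 and 0.168). The added fit without stray-background spots gave 1.01 and 1.10, each called. The call of *GRF1* was lost without leaf replicate 1, where the difference was 1.02 and the adjusted p 0.0527, and in the methods' t-test once its p-values were adjusted in the same way (adjusted p = 0.0931).

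*GRF4*, which contributes to cotyledon and leaf growth together with its relatives, read 9.13 and 8.72 in the meristem and 8.72 and 8.41 in the leaf (AT3G52910). The lower meristem array and the higher leaf array were equal to 2 decimals. The difference was 0.36 (SE 0.21, limma adjusted p = 0.226), and its interval of -0.21 to 0.93 takes in no change as well as a gain of nearly 1 log2 unit. Differences larger than that of *GRF4* were found for 36.6% of the loci tested. The probe of *GRF4* covers 153 positions of the genome, chr3:19625132-19625284, whereas each of the other 9 covers 60. Scaling to the spike-in controls, which raised the median of all loci by 0.77, gave 1.13 for *GRF4* and a call (adjusted p = 0.0105), and scaling to the median of each array gave 0.06.

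**Figure D2:**
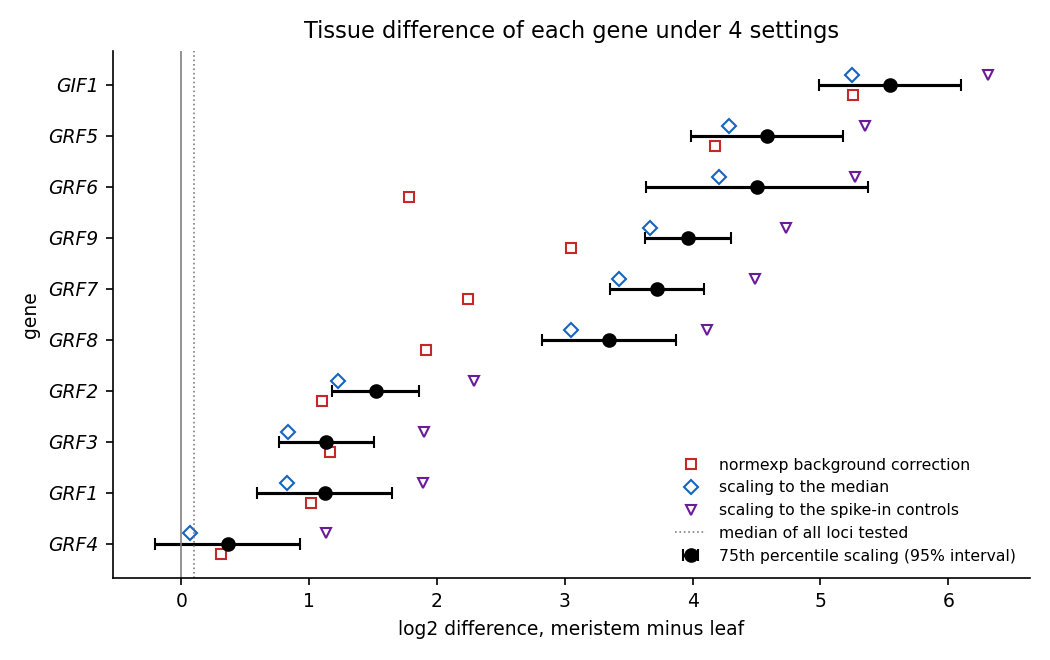
Log2 difference between meristem and leaf (horizontal axis) for each gene (vertical axis). Black points with 95% intervals are the limma estimates after scaling to the 75th percentile, n = 2 arrays per tissue, open symbols are the estimates after normexp background correction (spots with a stray background left out), scaling to the median and scaling to the spike-in controls, and the dotted line is the median of all loci tested. All 40 estimates are above 0, and normexp draws in *GRF6*, *GRF7*, *GRF8* and *GRF9*, the genes with dim leaf signals.

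The direction did not depend on the scaling. All 10 differences were positive under each of the 17 alternative settings. The alternative filters, probe rule and tests and the replicate block left the estimates of the 10 genes as they were. Under those settings the sign was fixed in advance. The number of genes called did depend on the setting. It was 10 after scaling to the spike-in controls, where 65.6% of all loci were called higher. In the methods' t-test with adjusted p-values it was 8, against 12.1% of all loci. Normexp as planned, fitted on all spots, called 3 of the 10 genes higher (*GRF3*, *GRF5* and *GIF1*) against 2.35% of all loci. That fit was drawn off by 19 spots on the array of meristem replicate 1 and 1 spot on that of leaf replicate 1 whose local background exceeded 2 times the median background of the array. With these spots in the fit, the 10th percentile of the corrected signal was 196 and 162 on the 2 arrays against 57.4 and 57.2 on their partners. When the stray spots were left out, a choice made after seeing the data, the same percentile was 57.0 and 57.5, and 9 of the 10 genes were called higher against 24.1% of all loci. In that fit 4 of the 10 genes were 4-fold higher against 2.14% of all loci, and *GRF6* (1.78) and *GRF8* (1.91) no longer reached 4-fold.

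**Figure D3:**
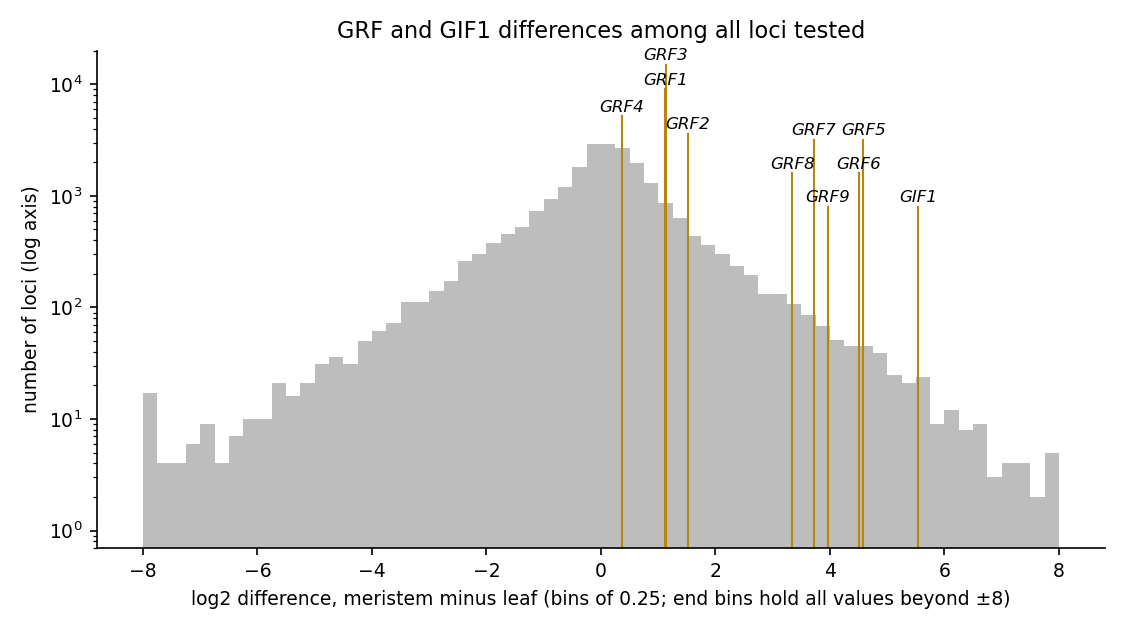
Number of loci (vertical log axis) by log2 difference between meristem and leaf (horizontal axis, bins of 0.25) for the 23259 loci tested, with the 10 genes marked by vertical lines whose heights carry no value. *GRF1*, *GRF2*, *GRF3* and *GRF4* stand in the dense centre or its shoulder, with up to 36.6% of the loci further to the right, and the other 6 genes stand in the right tail with at most 2.27%.

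Because each gene is read by the same probe on every array, a change in the ratio of a pair of genes within an array does not depend on the scaling between arrays. Of the 45 pairs of the 10 genes, 43 had ratios that did not overlap between tissues. The same held for 80% of all pairs of loci tested, so the count is not read as a feature of these genes. In a comparison of 2 against 2 arrays the smallest two-sided exact permutation p is 0.333, so single ratios are given as values. The closest relatives *GRF5* and *GRF6* were 1 of the 2 exceptions. Their log2 ratio was 4.25 and 4.62 in the meristem and 4.59 and 4.12 in the leaf. The first leaf ratio uses a *GRF6* signal that was not well above background, and with normexp without stray-background spots the 2 genes differed by 4.17 and 1.78, so the likeness of the pair depends on the background correction. The other exception was *GRF1* and *GRF3*, at -2.76 and -3.07 in the meristem and -3.10 and -2.71 in the leaf. *GRF3* and *GRF4*, also close relatives, moved apart, from log2 ratios of 2.96 and 3.07 in the leaf to 3.63 and 3.94 in the meristem. *GRF7* over *GRF8* shifted less, from 0.48 and -0.01 to 0.69 and 0.53. The ratio of *GRF5* to its partner gene *GIF1* fell from -0.62 and -0.50 in the leaf to -1.50 and -1.54 in the meristem. All 9 *GRF* genes shifted in this direction against *GIF1*, which follows from *GIF1* having the largest difference of the 10.

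Grouped by miR396, 6 of the 7 *GRF* genes with a site in their transcript were called higher in the meristem, against 27.1% of all loci. Of these, 3 were 4-fold higher, against 6.55% of all loci. The 7 genes had a median difference of 1.52 and a range of 0.36 to 3.96. Both genes without the site were called, with a median of 4.54. The ranges of the 2 groups did not overlap with the processed signal, but they did after normexp without stray-background spots, where *GRF6* gave 1.78 and *GRF9* 3.05, and the second group consists of 1 pair of related genes. miR396 was not measured here. The miR396 target outside the family that has a probe, *BHLH74*, which encodes a basic helix-loop-helix protein, read 11.55 and 11.83 in the meristem and 10.30 and 10.35 in the leaf and differed by 1.37 (SE 0.15, limma adjusted p = 0.00348).

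The loci outside the lists whose 4 arrays ran most like those of *GIF1* were picked by the smallest Euclidean distance between centred log2 values, among 18498 loci well above background on every array. They were *WRKY14* (distance 0.216, difference 5.33), *PAN* (0.240, 5.74) and AT4G24110 (0.289, 5.58). *PAN* encodes a bZIP factor known for its role in floral organ number, and *WRKY14* a WRKY transcription factor. For *GRF5* the nearest loci were *IQD25* (distance 0.203, difference 4.77), AT2G16580 (0.203, 4.54) and *WRKY35* (0.228, 4.74). *IQD25* encodes a protein of the calmodulin-binding IQ67 domain family and AT2G16580 the small auxin up RNA SAUR8. With 4 arrays this distance mainly reads the size of the tissue difference.

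The homologues of *GIF1* did not show a difference of its size. *GIF2* read 9.26 and 10.09 in the meristem and 8.99 and 9.14 in the leaf, a difference of 0.61 that did not pass the test (SE 0.31, limma adjusted p = 0.179). *GIF3* read 7.81 and 8.03 against 6.92 and 7.14 and was called, at 0.89 (SE 0.16, limma adjusted p = 0.0125). Neither was called without leaf replicate 1, and both were called without meristem replicate 1. Among 11 subunits of SWI/SNF complexes, through which GIF1 acts, 6 were called higher, against 27.1% of all loci. None was called lower and 5 were not called, with a median difference of 0.62 over the 11. The ATPase *BRM* was higher by 0.69 (limma adjusted p = 0.0153) and the ATPase *SYD* gave 0.48 (limma adjusted p = 0.0561). The largest differences of the complex were 1.11 for *BSH* and 0.98 for *ARP4*, and *SWP73A* had a negative value of -0.45 that did not pass the test (limma adjusted p = 0.113). None of the 11 reached 4-fold, and the count of higher subunits was not stable. It was 2 after scaling to the median (with 1 lower), where 17.6% of all loci were called higher, and 10 with the spike-in controls (65.6%). The methods' t-test with adjusted p-values gave 3 (12.1%) and planned normexp 0 (2.35%).

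Other regulators of organ growth differed more widely. Of 18 such genes 13 were called higher, against 27.1% of all loci, and 8 of them 4-fold, against 6.55%. Of the others 1 was called lower and 4 were not called, and the median difference of the 18 was 1.81. The count of higher genes depended on the setting. It was 3 with planned normexp (2.35% of all loci) and 17 with the spike-in controls (65.6%). The methods' t-test with adjusted p-values called 10 higher (12.1%) and none lower. The largest gain was that of *CYP78A5*, the cytochrome P450 gene *KLUH* that sustains cell proliferation in organs, which read 11.97 and 12.13 against 4.71 and 4.49 (difference 7.45, SE 0.15, limma adjusted p = 0.000464). It was followed by *AIL7*, an *AINTEGUMENTA*-like factor of the meristem, with 6.03 (SE 0.36, limma adjusted p = 0.000906). In leaf both probes were well above background but dim. The leaf signals were 26.1 and 22.5 for *CYP78A5* and 20.0 and 23.4 for *AIL7*. The sizes of these differences under another background correction are not given here. The gene called lower was *TCP4*, a class II TCP factor that promotes leaf maturation and activates miR396, with 9.88 and 9.24 in the meristem and 12.46 and 12.34 in the leaf (difference -2.84, SE 0.25, limma adjusted p = 0.00198). *ANT*, the founding member of the *AIL* group, is named here after its values had been seen, because it directly follows *GRF2* on the chromosome in the TAIR10.1 gene table. It read 12.86 and 12.47 in the meristem and 9.65 and 9.92 in the leaf and differed by 2.88 (limma adjusted p = 0.00119) beside 1.52 for *GRF2*.

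**Figure D4:**
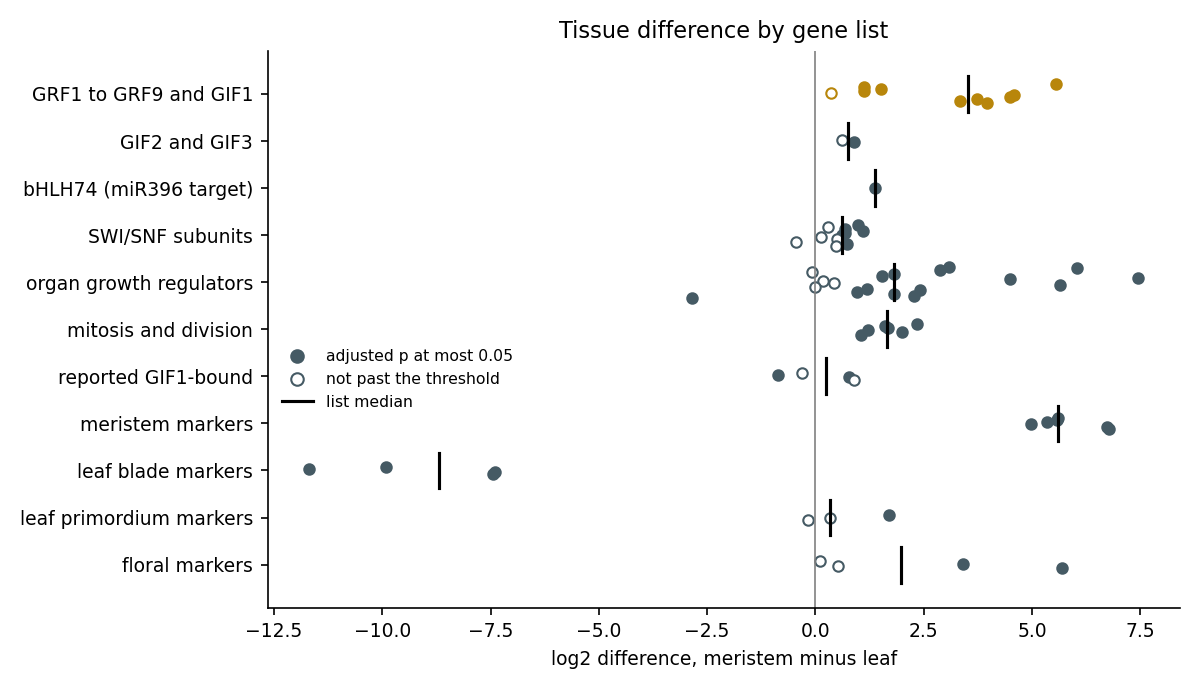
Log2 difference between meristem and leaf (horizontal axis) of each measured gene in 11 lists (vertical axis). Filled points passed an adjusted p of at most 0.05 in limma, open points did not, and vertical bars are list medians. The 10 genes at the top span 0.36 to 5.54 (median 3.53). Their range overlaps with the SWI/SNF subunits (median 0.62) and with the meristem markers (median 5.59). Leaf blade markers (median -8.68) stand at the far left.

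Several genes that mark other features of the tissue differed in the same direction as the *GRF* genes. All 6 mitosis and division genes were called higher, against 27.1% of all loci, with a median of 1.65, *CDKB1;1* at 2.36 and the D-type cyclin *CYCD3;1* at 2.00. Fewer of the 6 were called under other settings, 4 after scaling to the median (17.6% of all loci called higher) or after quantile normalization (26.8%). Planned normexp called 2 (2.35%) and the methods' t-test with adjusted p-values 1 (12.1%). The summed signal of the 6 division genes was 18110 and 12630 in the meristem and 5235 and 5611 in the leaf. Such sums, here and below, are dominated by the brightest probes of a list. The summed signal of the 6 meristem markers was 15910 and 21140 against 269 and 292, with *WUS* not well above background in leaf. The 4 leaf blade markers ran the opposite way, with a summed signal of 3768 and 1269 against 435200 and 373800, where *CA1* and *FBA5* were each well above background on 1 of the 2 meristem arrays. Of the 3 leaf primordium markers, genes of the tissue in which GRFs and GIF1 are best known, *AS1* was called higher (1.70). The other 2 were not called, *FIL* at 0.34 and *YAB3* at -0.17. *AS1* made up most of the sums of 8749 and 9767 against 3466 and 3479. Of the 4 floral markers *LFY* (5.70) and *AP1* (3.41) were called higher, and *LFY* was well above background on only 1 of the 2 leaf arrays. *AP3* was not called (0.53, limma adjusted p = 0.118). Neither was *AG*, which was well above background only on 1 meristem array. The sums of the 4 were 613.5 and 984.7 against 64.8 and 54.3. *AP3* gave 32.5 and 24.0 of the leaf sums. The part of dividing cells, primordia and floral tissue in the *GRF* and *GIF1* differences was not tested.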

How the data were processed

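The authors deposited the Feature Extraction output (version 9.5.3.1) of 4 one-colour Agilent arrays as fluorescence intensity per spot. The deposited processed intensity is background-subtracted within the array and not scaled between arrays, and dim spots carry a small surrogate value. Genome build and probe design are not given in the sources used here. Outlier spots (10 to 12 per array) were set to missing, spots of a probe were averaged, the 75th percentiles of the log2 values were aligned between arrays, and the brightest of 26236 probes stood for each locus. A locus was tested if its signal after background subtraction exceeded 0 in both replicates of a tissue, with limma 3.58.1 in R 4.3.3, two-sided, without a block. The 2 arrays per tissue are biological replicates, their number limits the precision, and the estimated prior had 2.26 degrees of freedom. A fold against a tissue without signal well above background is a lower bound. The procedure was tested on simulated data.

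The planned rule named all 10 genes, at most 2 called genes per direction of each other list and the 3 loci nearest in pattern to *GRF5* and *GIF1*. It also named all GIF, miR396-related and SWI/SNF ATPase genes with a value. Exceptions are *ANT*, named after its values were seen, and *SWP73A*, *ARR4*, *HEC1*, *AG*, *AP3*, *FIL* and *YAB3*, which were not called. All 71 listed loci were found by locus tag in the RefSeq gene table of TAIR10.1. The members and lists were chosen with earlier results of these data known. The alternatives were other background corrections, scalings, filters, probe rules and tests, a replicate block and leaving out each array. Figures were drawn with matplotlib 3.10.9 in Python 3.11.15.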

Additional observations from a re-analysis of the deposited data

How the results depend on the processing

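No difference of the 10 genes changed sign under 17 alternatives, and 161 of 170 stayed on the same side of the threshold. The alternative filters, probe rule, tests and block could change a call of these genes but not a sign. With normexp on all spots, 547 loci were called higher and 1305 lower, 252 and 655 of them 4-fold, 3 of the 10 genes were called (2 of them 4-fold), and the calls of *GRF1* (0.92), *GRF2* (0.92), *GRF6* (1.34), *GRF7* (1.84), *GRF8* (1.54) and *GRF9* (2.66) were lost. With normexp without the stray-background spots, added after seeing the data, 497 loci were 4-fold higher and 949 lower, the offset drawing in dim values by construction. Scaling moved the median of all loci, by -0.30 with the median, 0.42 with none and 0.77 with the spike-in controls, and the share of higher among called loci from 55.7% to 37.2%, 73.3% and 85.1% (29.5% with normexp). Scaling to the median called 4088 loci higher and no scaling 2836 lower. The spike-in controls gave 15269 higher and 2675 lower, 3005 and 758 of them 4-fold, and a call of *GRF4* (1.13). The methods' t-test with Benjamini-Hochberg adjustment called 2808 higher and 2802 lower, 961 of the higher 4-fold, and lost *GRF1* (1.12). Leaving out each array gave 3851 to 5884 loci higher, 3807 to 4802 lower, 1509 to 1621 and 1451 to 1576 4-fold, 8 to 9 of the 10 genes called and 0.91 to 1.33 for *GRF1*. The smallest count of higher loci came without leaf replicate 1, and 4083 were called without leaf replicate 2. The replicate numbers are not stated to pair the samples, whose same-numbered deviations correlated at 0.0902 (0.207 over loci well above background). With the replicate block 10917 loci were called in place of 11315, *GRF4* had an adjusted p of 0.0952, and no call of the 10 genes changed. Of 340 counts for the other lists 39 moved by over 1.5 times, 9 of them with normexp on all spots. Dim leaf signals limit the fold of *GRF6*, *GRF7*, *GRF8* and *GRF9*.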

Other observations

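Genes reported in the literature as bound by GIF1 did not move as a group. Of 4 such genes outside the family, the cytokinin response factor *CRF2* was called higher in the meristem, with 11.25 and 11.38 against 10.39 and 10.68 (difference 0.78, limma adjusted p = 0.0184). The CONSTANS-like gene *COL5* was called lower, with 14.26 and 14.52 against 15.26 and 15.23 (difference -0.86, limma adjusted p = 0.0114). The response regulator *ARR4* gave -0.31 (limma adjusted p = 0.0923), and *HEC1* was not well above background on any of the 4 arrays. The median of the 4 differences was 0.24, beside 0.10 over all loci tested, of which 27.1% were called higher and 21.6% lower. The calls depended on the scaling and on single arrays, with 0 higher and 2 lower after scaling to the median, 2 higher and 0 lower with the spike-in controls, 0 and 0 without leaf replicate 1, 2 and 0 without leaf replicate 2 and 0 higher without meristem replicate 2.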
